A study of Homo sapiens with 2 samples.

Results

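The genes ACTA2, ACTG2, TAGLN, CNN1, MYL9, TPM1, TPM2, CALD1 and LMOD1 encode proteins of the contractile apparatus of smooth muscle. They are described here across 6 human breast cancer cell lines and between single cells of Hs578T. The 9 genes were chosen by symbol among the 36601 genes of the matrix, with their levels in these lines and their spread between Hs578T cells already known. Every value of them below is therefore a description, and none carries a test.

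In smooth muscle, actin filaments slide along myosin when the regulatory light chain of myosin is phosphorylated, and tropomyosin, calponin and caldesmon bind along the filament and modulate the sliding. ACTA2 and ACTG2 encode the smooth muscle actins, MYL9 a regulatory light chain, TPM1 and TPM2 tropomyosins, CNN1 calponin, CALD1 caldesmon, TAGLN the actin-binding protein transgelin, and LMOD1 leiomodin, which nucleates actin filaments. Many of these genes are known targets of serum response factor, which binds a sequence named the CArG box, with its coactivators myocardin and the myocardin-related factors. In breast tissue the same proteins mark myoepithelial cells, vascular smooth muscle and activated fibroblasts, and ACTA2 is the usual marker of a myofibroblast. CALD1, TPM1 and TPM2 also have forms made in non-muscle cells, which 3′ counts do not tell apart from the muscle forms.

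Single-cell RNA sequencing was done on the triple-negative lines Hs578T, HCC38, MDA-MB-436 and MDA-MB-231 and on the luminal lines BT-474 and MDA-MB-453, with no treatment named. Every line was 1 culture, stained with its own multiplexing oligo and captured with others, Hs578T with HCC38 and MDA-MB-436 in 1 capture, and MDA-MB-231 with BT-474 and MDA-MB-453 in the other. The cells of a line are the barcodes with 1 of 6 suffixes, and each group is called by the line whose markers it led, for example "Hs578T-like". No culture was repeated, so intervals below are 95% intervals of counting error only, and line and capture cannot be told apart between the captures.

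Barcodes with at most 20% mitochondrial UMIs were kept, 15547 of 17605, among them 1989 of the 2288 Hs578T-like barcodes. The Hs578T-like group led all 8 markers of its line, among them PRRX1, TWIST1, COL1A1 and LUM, and the other groups led between 5 and 9 of theirs. Total UMIs per group lay between 70.0 M and 96.6 M, with 83.2 M in the Hs578T-like group. The median per barcode was 38069 UMIs in Hs578T-like cells, and between 20306 and 34483 in the others. The median mitochondrial share was 5.84% in Hs578T-like cells and 14.5% in BT-474-like cells, the highest of the 6 groups. Of the kept barcodes, 40 had bases that occur under more than 1 suffix, and 0 of these did so within a capture.

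For 3 of the genes, the region before 1 start of transcription holds a match to the CArG box, written as CC, then 6 bases that are A or T, then GG. These 3 are printed to show where the matches lie. The letters are RefSeq's for GRCh38.p14, 250 bases that end just before a start of transcription, 5′ to 3′ on the gene's own strand, and capitals mark the matches. ACTG2 is on chromosome 2 (chr2:73892758-73893007, plus strand), ACTA2 on chromosome 10 (chr10:88952774-88953023, minus strand) and CALD1 on chromosome 7 (chr7:134711249-134711498, plus strand). ACTA2 has 2 windows in RefSeq and CALD1 has 4, and their other windows hold no match. The CALD1 start shown lies before the span of the gene in GENCODE that is given below.
ACTG2: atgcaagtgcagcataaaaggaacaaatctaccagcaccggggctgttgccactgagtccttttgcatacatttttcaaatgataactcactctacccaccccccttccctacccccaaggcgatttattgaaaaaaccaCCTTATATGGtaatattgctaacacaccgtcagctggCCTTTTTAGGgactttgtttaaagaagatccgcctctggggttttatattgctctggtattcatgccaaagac
ACTA2: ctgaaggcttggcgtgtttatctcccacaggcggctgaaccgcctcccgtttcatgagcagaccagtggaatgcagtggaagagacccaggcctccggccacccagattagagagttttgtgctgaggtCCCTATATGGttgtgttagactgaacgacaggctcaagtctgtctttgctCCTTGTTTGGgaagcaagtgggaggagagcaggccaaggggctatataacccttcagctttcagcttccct
CALD1: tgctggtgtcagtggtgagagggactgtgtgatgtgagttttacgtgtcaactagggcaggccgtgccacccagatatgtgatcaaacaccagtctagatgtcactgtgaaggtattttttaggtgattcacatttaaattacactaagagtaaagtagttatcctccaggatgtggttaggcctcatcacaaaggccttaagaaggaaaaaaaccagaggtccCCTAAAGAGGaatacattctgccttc
Both ACTG2 matches keep the full pattern, CCTTATATGG at 110 and CCTTTTTAGG at 73 bases before the start. The ACTA2 matches each have 1 of the 6 inner bases outside A and T, CCCTATATGG at 121 and CCTTGTTTGG at 71 bases before the start. CALD1 has CCTAAAGAGG, also with 1 such base, at 26 bases before the start.

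The search covered windows from 250 bases before to 50 bases after each start, on both strands, since the pattern reads the same on either. A window was found for 7 of the 9 genes, 12 windows in all, for ACTA2, ACTG2, CNN1, TPM1, TPM2, CALD1 and LMOD1. The full pattern stood in 1 of the 12, and the pattern with at most 1 deviation in 3. Among 35114 windows of the same length, 1.29% held the full pattern and 8.13% the full pattern or 1 deviation. A match describes the letters and shows no binding.

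The smooth muscle actins were highest in the Hs578T-like group and close to 0 in the luminal groups. ACTA2, smooth muscle alpha-actin (ENSG00000107796, chromosome 10, 88935074 to 88991339, minus strand), had 368 CPM (UMIs per 1000000 UMIs of the group) in Hs578T-like cells. It had 66.0 CPM in HCC38-like, 14.7 in MDA-MB-436-like and 2.12 in MDA-MB-231-like cells, with 0.0571 CPM (4 UMIs) in BT-474-like and 0.117 CPM (9 UMIs) in MDA-MB-453-like cells. The Hs578T-like level was 5.58-fold that of HCC38-like cells (5.43 to 5.73). The intervals of the luminal groups overlap each other, and all other neighbours in this order are apart. ACTA2 overlaps FAS, STAMBPL1 and an antisense gene on the other strand, and TAGLN, MYL9, TPM1 and LMOD1 also overlap genes there. No source used here says whether counting used strand, so reads of such partners may be among the counts.

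ACTG2, smooth muscle gamma-actin (ENSG00000163017, chromosome 2, 73892314 to 73919865, plus strand), had 290 CPM in Hs578T-like cells, 14.1 in HCC38-like and 9.33 in MDA-MB-436-like cells. It had 5 UMIs in BT-474-like cells and 0 in MDA-MB-231-like and MDA-MB-453-like cells. The Hs578T-like level was thus 20.6-fold that of HCC38-like cells (19.5 to 21.8). The actins differed in MDA-MB-231-like cells, which held 181 ACTA2 UMIs and no ACTG2 UMI.

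The regulatory light chain and the tropomyosins reached further into other lines. MYL9 (ENSG00000101335, chromosome 20, 36541484 to 36551447, plus strand) had 1319 CPM in Hs578T-like cells, 337 in HCC38-like, 58.4 in MDA-MB-436-like, 190 in MDA-MB-231-like, 2.64 in BT-474-like and 3.44 in MDA-MB-453-like cells. It was higher in MDA-MB-231-like cells, of the other capture, than in MDA-MB-436-like cells, of the Hs578T capture. TPM1 (ENSG00000140416, chromosome 15, 63042632 to 63071915, plus strand) had 2038 CPM in Hs578T-like cells, 1361 in HCC38-like, 418 in MDA-MB-436-like, 169 in MDA-MB-231-like, 426 in BT-474-like and 205 in MDA-MB-453-like cells. Of the 9 genes it alone exceeded 10 CPM in a luminal group, and its levels in BT-474-like and MDA-MB-436-like cells have overlapping intervals. The Hs578T-like level of TPM1 was 1.497-fold that of HCC38-like cells (1.49 to 1.51), the smallest such ratio of the 9.

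TPM2 (ENSG00000198467, chromosome 9, 35681992 to 35690121, minus strand) differed from TPM1 in its span. It had 2121 CPM in Hs578T-like cells, 558 in HCC38-like, 174 in MDA-MB-436-like and 2.70 in MDA-MB-231-like cells, with 0.271 in BT-474-like and 0.586 in MDA-MB-453-like cells. In MDA-MB-231-like cells TPM2 was thus at 0.127% of its Hs578T-like level, while TPM1 there was at 8.30% of its own.

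Among the filament-binding genes, CALD1 reached 221 CPM or more in each of the 4 triple-negative groups, and TAGLN, CNN1 and LMOD1 were concentrated in Hs578T. CALD1 (ENSG00000122786, chromosome 7, 134744252 to 134970728, plus strand) had 2408 CPM in Hs578T-like cells, 537 in HCC38-like, 221 in MDA-MB-436-like and 298 in MDA-MB-231-like cells, against 3.30 in BT-474-like and 3.61 in MDA-MB-453-like cells. TAGLN (ENSG00000149591, chromosome 11, 117199321 to 117204782, plus strand) had 1624 CPM in Hs578T-like cells, 80.8 in HCC38-like, 52.5 in MDA-MB-436-like, 11.8 in MDA-MB-231-like, 1.67 in BT-474-like and 3.02 in MDA-MB-453-like cells. All 6 TAGLN levels have intervals apart from their neighbours, and the Hs578T-like level was 20.1-fold that of HCC38-like cells (19.6 to 20.6).

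CNN1, a late marker of smooth muscle differentiation (ENSG00000130176, chromosome 19, 11538717 to 11550323, plus strand), had 38.3 CPM in Hs578T-like cells, 1.74 in HCC38-like and 1.20 in MDA-MB-436-like cells. MDA-MB-231-like cells held 2 CNN1 UMIs, and the luminal groups held 0. LMOD1 (ENSG00000163431, chromosome 1, 201896452 to 201946588, minus strand) had 17.4 CPM in Hs578T-like cells, 0.787 in HCC38-like and 0.556 in MDA-MB-436-like cells, and between 1 and 3 UMIs in each group of the other capture. The LMOD1 intervals of HCC38-like and MDA-MB-436-like cells overlap, as do those of the lowest groups. Over the 9 genes, 11 of the 45 pairs of neighbours in the order of levels have overlapping intervals, none of them at the top.

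**Figure D1:**
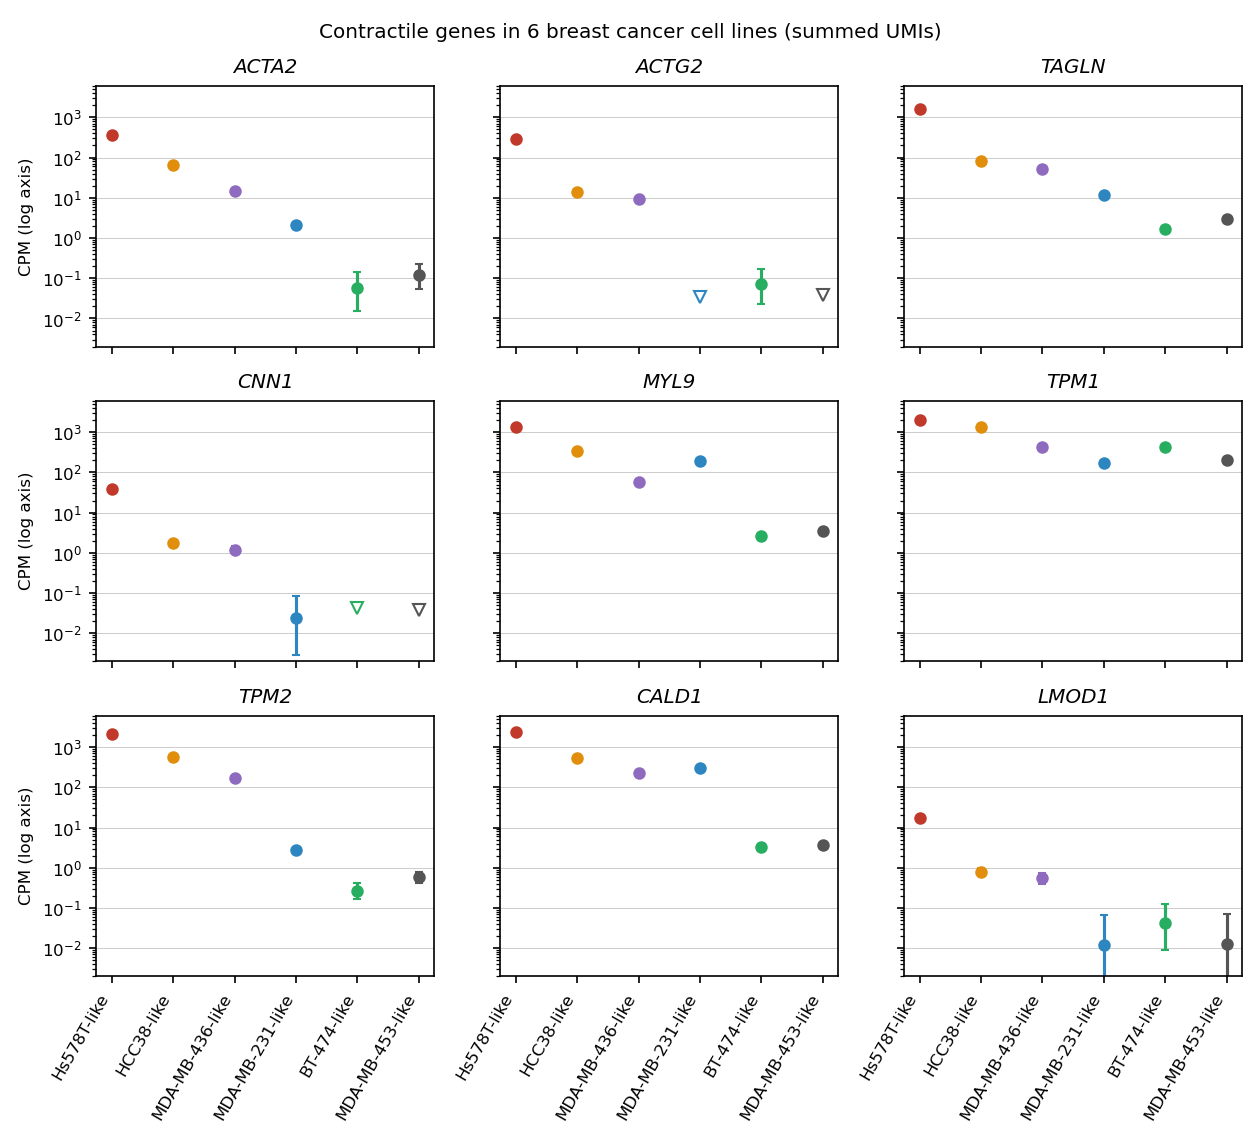
Levels of the 9 contractile genes in the 6 groups, in UMIs per 1000000 UMIs of a group (CPM), on a log axis. Points are levels, bars are exact 95% Poisson intervals, and open triangles mark groups with 0 UMIs at the limit of 3 UMIs. The Hs578T-like group has the highest level in all 9 panels, and TPM1 is the gene whose levels span the least.

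All 9 genes were highest in the Hs578T-like group, as were 15.5% of the 10901 measured genes, those with at least 10 CPM in a group. On the scale of log2(CPM + 1), all 9 were at least 2-fold higher in the Hs578T-like group than the mean of the other 5, as were 14% of measured genes. Their median log2 difference was 5.35, beside -0.02 over all measured genes. Against the next highest group, which was HCC38-like for each of the 9, 8 were at least 2-fold higher (3.55% of measured genes), TPM1 being the exception. At least 4-fold were ACTA2, ACTG2, TAGLN, CNN1, CALD1 and LMOD1, 6 in all (1.71% of measured genes). The genes were chosen on this contrast, so the counts say how the choice looks and no more.

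The luminal groups were set against the mean of the other 4 on the same scale. All 9 genes were at least 2-fold lower in the luminal groups, as were 20.6% of measured genes, with a median log2 difference of -4.90 beside -0.17 over all measured genes. CALD1 differed by -6.93, TPM2 by -6.87 and MYL9 by -6.05 on the log2 scale. Both luminal groups lay below all of the other 4 for 6 of the 9 genes (19.8% of measured genes). Of the other 4, MDA-MB-231-like cells alone shared the capture of the luminal groups. They held 0 ACTG2, 2 CNN1 and 1 LMOD1 UMIs, and the luminal groups between 0 and 5 of each. For these genes the luminal groups were thus not apart from MDA-MB-231-like cells, and the difference lay against the groups of the Hs578T capture. With a pseudocount of 5 CPM, 7 of the 9 were at least 2-fold lower, CNN1 and LMOD1 being under that fold.

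Free RNA of a capture, and barcodes that hold cells of more than 1 line, can give UMIs of Hs578T genes to the other lines of its capture. The 8 markers of Hs578T were therefore read beside the 9 genes. In HCC38-like cells the markers were at 3.08% to 10.4% of their Hs578T-like level, with a median of 3.69%. ACTG2 was there at 4.84%, TAGLN at 4.98%, CNN1 at 4.54% and LMOD1 at 4.53% of their Hs578T-like levels, all within the range of the markers. These 4 are above the median marker and below the highest, CDH2. ACTA2 was at 17.9%, CALD1 at 22.3%, MYL9 at 25.5%, TPM2 at 26.3% and TPM1 at 66.8%, so 5 of the 9 lay above the highest marker.

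When 131 of the 2569 HCC38-like barcodes, called as doublets or as mixed with another line, were left out together with 122 Hs578T-like barcodes, ACTA2 in HCC38-like cells was at 15.2% of the Hs578T-like level. MYL9 was at 23.2%, TPM2 at 24.3%, CALD1 at 20.4% and TPM1 at 65.9%, while the markers were at 0.990% to 7.98%. ACTG2, TAGLN, CNN1 and LMOD1 were between 2.15% and 3.06%, again within the markers' range but above their median of 1.69%. Among the markers only CDH2, COL1A1 and TWIST1 were higher, at 4.33% or more. The same 5 genes thus stood above the markers with and without these barcodes.

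In MDA-MB-436-like cells no contractile gene lay above the highest marker, TWIST1, which was at 59.8% of its Hs578T-like level. PRRX1 was at 24.5% and CDH2 at 22.6%, and the rest of the markers lay between 2.45% and 3.19%. The median marker was at 3.16%. ACTA2 was at 3.98%, MYL9 at 4.42% and ACTG2, TAGLN, CNN1 and LMOD1 between 3.13% and 3.23%, whereas TPM2 was at 8.20%, CALD1 at 9.17% and TPM1 at 20.5%. Without doublets and mixed barcodes, these 3 were at 6.67%, 7.72% and 18.9%, and the median marker was at 1.70%. ACTA2 was then at 1.82% and MYL9 at 2.77%. ACTG2 (1.20%), TAGLN (1.23%), CNN1 (1.54%) and LMOD1 (0.663%) were below that median, LMOD1 also below the lowest marker (0.946%). In MDA-MB-231-like cells, of the other capture, the markers were at 1.44% at most, and MYL9 (14.4%), CALD1 (12.4%) and TPM1 (8.30%) lay above them. How much of the levels in HCC38-like and MDA-MB-436-like cells came from Hs578T RNA was not tested.

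**Figure D2:**
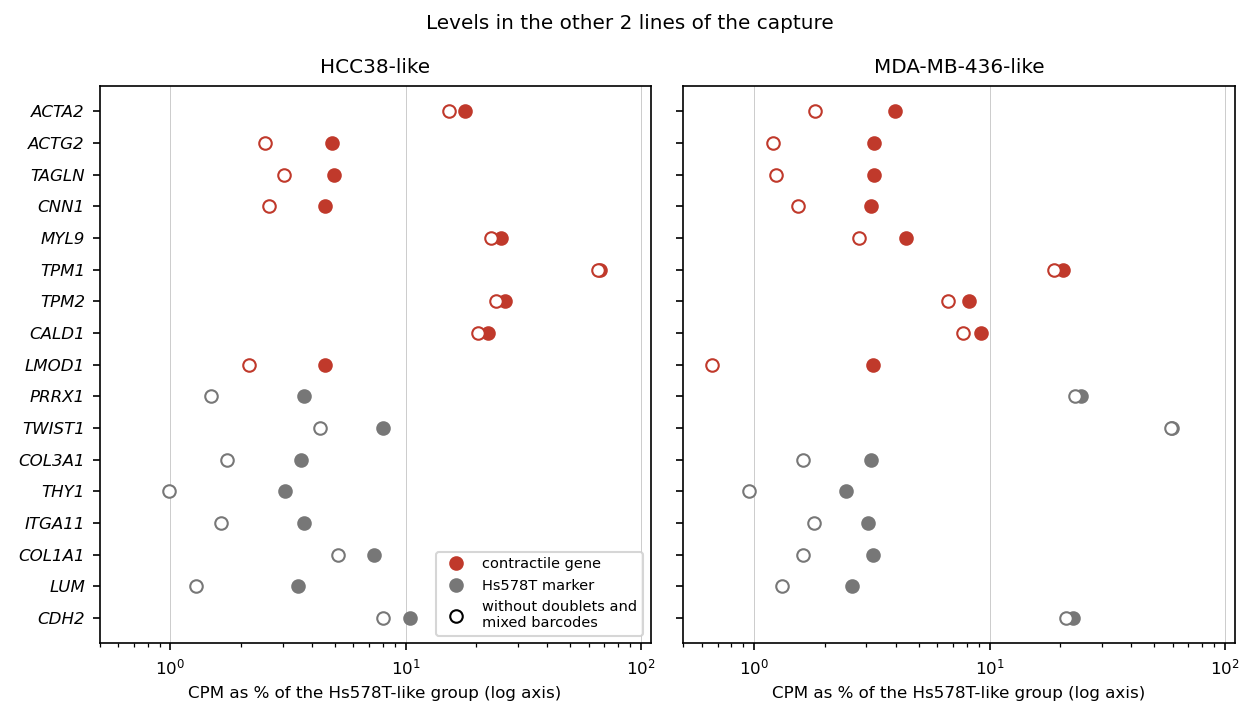
Level of each contractile gene and of each Hs578T marker in HCC38-like (left) and MDA-MB-436-like cells (right), as a percentage of its level in Hs578T-like cells, on a log axis. Filled points use all kept barcodes and open points leave out doublets and mixed barcodes. In HCC38-like cells ACTA2, MYL9, TPM1, TPM2 and CALD1 lie to the right of every marker, and the other 4 lie among them.

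The shares of cells with a UMI were compared at a depth of 10000 UMIs, to which each cell was thinned. Too shallow for this were 36 Hs578T-like cells and between 16 and 101 of each other group. ACTA2 was found in 62.4% of Hs578T-like cells (60.2 to 64.5), 21.8% of HCC38-like, 7.79% of MDA-MB-436-like and 0.0877% of MDA-MB-453-like cells. Without thinning, the ACTA2 shares were 80.0% of Hs578T-like, 39.9% of HCC38-like, 19.4% of MDA-MB-436-like and 0.261% of MDA-MB-453-like cells. TPM1, TPM2 and CALD1 were found in all 1953 thinned Hs578T-like cells, and MYL9 in 99.6%. TAGLN was found in 94.0%, ACTG2 in 70.5%, CNN1 in 22.7% and LMOD1 in 13.9% of them.

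Hs578T-like cells differed from each other in these genes by more than counting would give. At 10000 UMIs per cell, ACTA2 had a mean of 3.77 and a median of 1 UMI, with 0 at the 10th percentile, 11 at the 90th and 46 at most. It had 0 UMIs in 37.6% of cells, where a Poisson distribution of the same mean would give 2.30%. The top 10% of cells held 45.3% of all ACTA2 UMIs. TAGLN had a mean of 16.2 and a median of 11 UMIs, with 1 UMI at the 10th percentile, 37 at the 90th and 118 at most. Its variance was 15.8 times its mean, the highest of the 9 genes.

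In MYL9, TPM1, TPM2 and CALD1, found in nearly every cell, the percentiles lay closer to the median, in proportion to it, than in ACTA2 and TAGLN. MYL9 had a median of 12 UMIs, with 4 at the 10th and 24 at the 90th percentile. TPM2 had a median of 20 UMIs, with 11 and 33 at those percentiles, and the lowest variance relative to its mean of the abundant genes, 4.12. TPM1 had a median of 19 UMIs (10 and 32) and CALD1 a median of 22 (10 and 43). Variance relative to the mean gave another order, with CALD1 at 7.92 near ACTA2 at 8.08, and MYL9 at 4.93 above ACTG2 at 4.41. CNN1 and LMOD1 were sparse, with 0 UMIs in 77.3% and 86.1% of cells, and the top 10% of cells held 67.8% of the CNN1 UMIs.

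**Figure D3:**
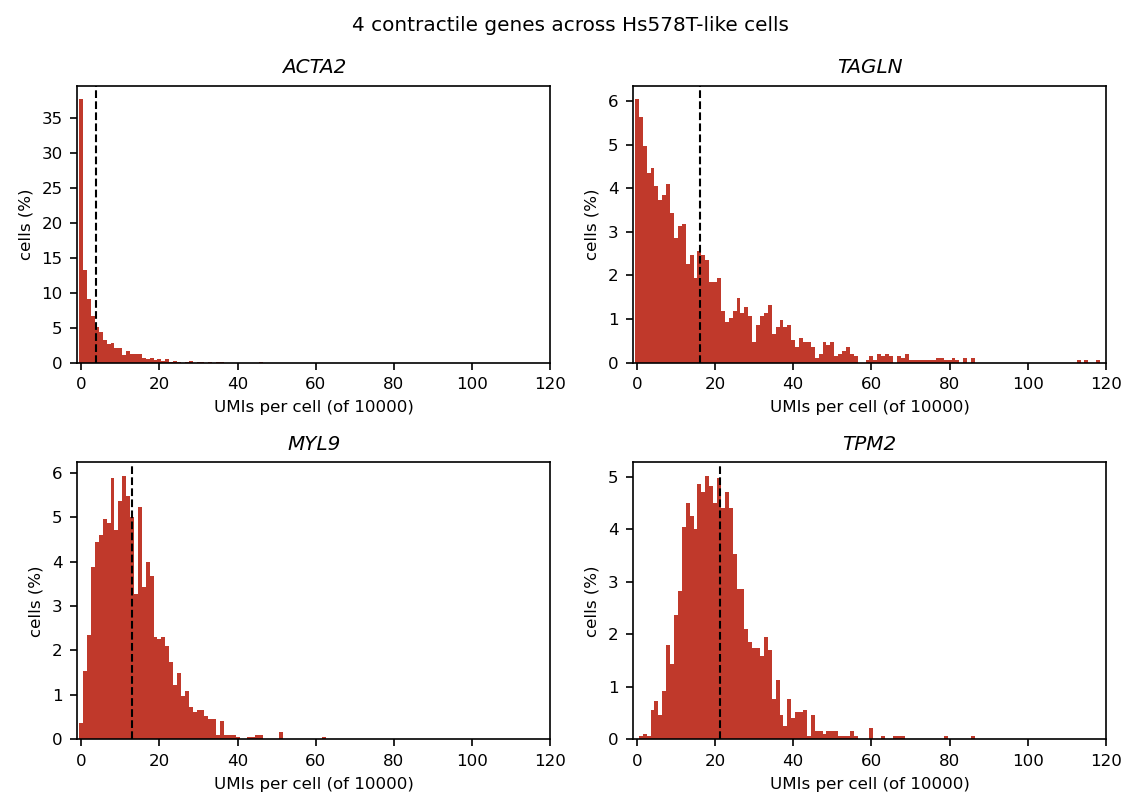
Share of the 1953 thinned Hs578T-like cells (vertical axis, percent) by UMIs per cell of ACTA2, TAGLN, MYL9 and TPM2 (horizontal axis), with the mean as a dashed line. ACTA2 and TAGLN are highest at 0 UMIs with a long tail to 46 and 118 UMIs, while MYL9 and TPM2 peak near their means.

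A variance of at least 1.5 times the mean was reached by 8 of the 9 genes, as by 7.19% of 8222 other genes with a mean of at least 0.1 UMI, whose median was 1.07. The exception was LMOD1, at 1.40. The other genes were not matched to the 9 in abundance. Several of the genes were also uneven in HCC38-like cells. There the ACTA2 variance was 8.52 times its mean of 0.586 UMIs, and a single cell held 62 UMIs. By this measure TAGLN (9.72) and TPM1 (8.86) were higher there. CALD1 (5.78), MYL9 (3.98), TPM2 (2.67) and ACTG2 (2.54) also passed 1.5, and CNN1 (1.27) and LMOD1 (1.23) did not. Without doublets and mixed barcodes, the HCC38-like values were 8.91 for ACTA2, 8.85 for TAGLN and 8.99 for TPM1. In MDA-MB-436-like cells the TAGLN variance was 21.5 times the mean, and 1.49 times without those barcodes.

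The 9 genes varied together between Hs578T-like cells. Over 36 pairs of genes, the Pearson correlation of ln(1 + UMIs) across the 1953 thinned cells was at least 0.2 for all 36. The same held for 0.0485% of 18516655 pairs of other genes, whose median was near 0 (0.0015). Those were pairs of the 6086 other genes with a mean of at least 0.2 UMI, not matched to the 9 in abundance. LMOD1, with a mean of 0.178 UMI, lay below that limit itself. The median over the 36 was 0.41. The highest was 0.71, between TAGLN and MYL9, followed by 0.64 for TAGLN with ACTA2 and with ACTG2. The lowest, 0.21, was between TPM1 and LMOD1. TAGLN had the highest mean correlation with the other 8 (0.52), then ACTA2 (0.49) and MYL9 (0.48), and the sparse genes had the lowest, 0.33 for CNN1 and 0.26 for LMOD1. All cells came from 1 culture and 1 library, and with 5000 UMIs per cell 28 of the 36 pairs reached 0.2.

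**Figure D4:**
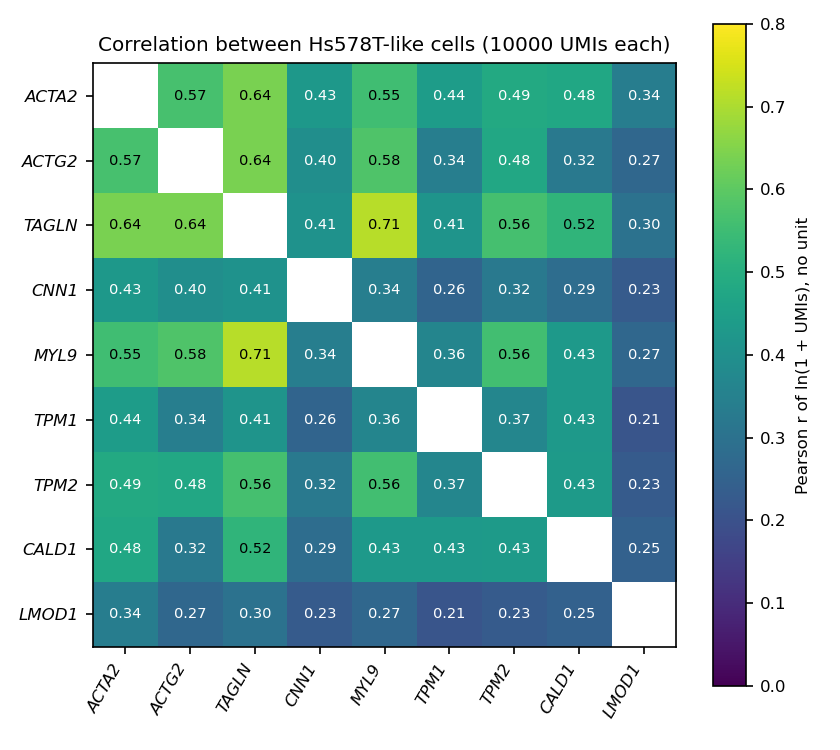
Pearson correlation of ln(1 + UMIs) between each pair of contractile genes over 1953 Hs578T-like cells thinned to 10000 UMIs each, as colour and as a printed value. All 36 pairs lie between 0.21 and 0.71, with TAGLN, MYL9, ACTA2 and ACTG2 as the brightest block and LMOD1 as the darkest row.

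In the other lines the same measure was taken for the genes with a mean of at least 0.2 UMI per cell. In Hs578T-like cells 8 of the 9 passed this limit, and 28 of 28 pairs reached 0.2. In HCC38-like cells ACTA2, TAGLN, MYL9, TPM1, TPM2 and CALD1 passed, and 15 of 15 pairs reached 0.2, with a median of 0.34. Without doublets and mixed barcodes it was 12 of 15, with a median of 0.31. In MDA-MB-436-like cells 5 of 10 pairs of TAGLN, MYL9, TPM1, TPM2 and CALD1 reached 0.2, and 0 of 10 did so without those barcodes, where the highest was 0.08. In MDA-MB-231-like cells 0 of 3 pairs reached 0.2, with a highest value of 0.19. The leaving out of these barcodes was chosen after the correlations of the other lines were seen.

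For each gene in turn, Hs578T-like cells were ranked by the summed UMIs of the other 8, and the 488 highest cells (the high set) were compared with the 488 lowest (the low set). ACTA2 averaged 9.31 UMIs in the high set and 0.406 in the low set, a ratio of 22.9 (19.9 to 26.6). CNN1 averaged 1.01 UMIs in the high set and 0.0328 in the low set, a ratio of 30.8 (18.8 to 54.3). LMOD1 averaged 0.461 UMIs in the high set and 0.0287 in the low set, a ratio of 16.1 (9.38 to 29.9). The ratios of these 3 are the widest, and those of CNN1 and LMOD1 rest on 16 and 14 UMIs in the low set.

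ACTG2 averaged 6.02 UMIs in the high set and 0.686 in the low set, a ratio of 8.78 (7.84 to 9.86). TAGLN averaged 33.1 UMIs in the high set and 4.10 in the low set, a ratio of 8.08 (7.72 to 8.47). Both ratios were thus below those of CNN1, ACTA2 and LMOD1 and above those of the rest. MYL9 averaged 20.9 UMIs in the high set and 6.78 in the low set, a ratio of 3.08 (2.97 to 3.21). The genes with non-muscle forms differed least, with ratios of 2.28 for CALD1, 2.03 for TPM2 and 1.86 for TPM1 (1.81 to 1.91). All 9 reached 1.5-fold, as did 5.29% of 8222 other genes when cells were ranked by all 9. With all cells split at the median, 8 of the 9 reached it, TPM1 being at 1.48.

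**Figure D5:**
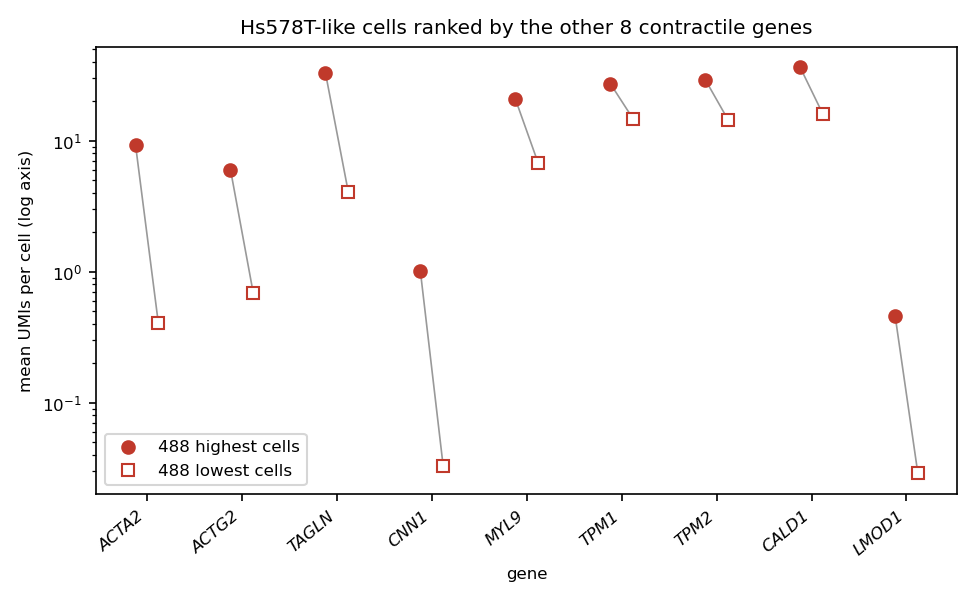
Mean UMIs per cell of each contractile gene in the high set (filled circles) and low set (open squares) of Hs578T-like cells, ranked by the other 8 genes, at 10000 UMIs per cell and on a log axis. The lines are steepest for CNN1, ACTA2 and LMOD1 and flattest for TPM1, TPM2 and CALD1.

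Ranked by all 9 genes, cells of the high set held between 129 and 453 of their UMIs per 10000, with a median of 160, and cells of the low set between 19 and 66, with a median of 52. The sets were close in depth before thinning, with medians of 37156 UMIs in the high set and 39373 in the low set, and in mitochondrial share, 5.63% in the high set and 6.20% in the low set. Doublets and mixed barcodes made up 3.89% of the high set and 10.6% of the low set, and without them all 9 genes again reached 1.5-fold. Summed UMIs of the 15 G2/M genes averaged 22.3 per cell in the high set and 26.7 in the low set, and those of the 15 G1/S genes 14.3 in the high set and 11.7 in the low set. Among cells with few G2/M UMIs, all 9 genes and 36 of 36 pairs passed as before. No gene of the G1/S list and 1 of the G2/M list was at least 2-fold higher in the Hs578T-like group (14% of measured genes). At least 2-fold lower were 0 (12%).

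Genes outside the 9 were ranked by their correlation with the mean of the 9 standardised genes over Hs578T-like cells. Of 6086 genes with a mean of at least 0.2 UMI, 101 (1.66%) reached 0.2. The most alike was POSTN, which encodes periostin, a matrix protein of activated fibroblasts, at 0.52, followed by MYL6, an essential light chain of myosin, at 0.52 and ACTB, beta-actin, at 0.48. TPM4, PHLDA2, DSTN, KRT17, INHBA, ACTN1 and CFL1 completed the first 10, down to 0.37. Of these, TPM4 is a tropomyosin, DSTN and CFL1 encode actin-depolymerising proteins, ACTN1 an actin crosslinker, and INHBA a subunit of activin. POSTN averaged 20.8 UMIs in the high set and 8.28 in the low set. The keratin KRT17 averaged 2.13 UMIs in the high set and 0.260 in the low set, an 8.21-fold difference and the widest of the 10.

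The genes least alike over cells encode ribosomal or ribosome-bound proteins. RPS14 had a correlation of -0.40 and averaged 21.3 UMIs in the high set and 31.9 in the low set. RACK1 (-0.37), RPL7 (-0.34), RPS16 (-0.31) and RPL30 (-0.30) came next.

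Across the 6 groups, the levels most like those of the 9 genes were of COL6A3 (r = 0.999 with the mean of the 9), COL1A2, CTHRC1, PDLIM2 and INHBA (0.984), among 5191 genes at 50 CPM or more in a group. COL6A3, a chain of collagen VI, had 527 CPM in Hs578T-like cells, 35.6 in HCC38-like and 16.2 in MDA-MB-436-like cells, with at most 3.53 in the other 3. INHBA was on both rankings, with 242 CPM in Hs578T-like and 25.5 in HCC38-like cells. These correlations rest on 6 groups that share 2 captures.

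Other genes of smooth muscle were less concentrated in Hs578T. Of 22 listed, 13 were measured, and 6 were at least 2-fold higher in the Hs578T-like group than the mean of the other 5 (14% of measured genes) and 0 at least 2-fold lower (12%). Their median log2 difference was 0.90. ITGA8, an integrin of contractile cells, had 21.4 CPM in Hs578T-like and 0.787 in HCC38-like cells. MYLK, the kinase that phosphorylates the regulatory light chain, had 111 CPM in Hs578T-like and between 1.09 and 28.2 in the others, and SYNPO2 had 18.6 CPM beside 9.12 in HCC38-like cells. MYH11, the smooth muscle myosin heavy chain, was at 0.192 CPM and DES, desmin, at 0.0361 CPM in Hs578T-like cells, so both were near 0 there. PPP1R14A, an inhibitor of myosin phosphatase, had 0.421 CPM in Hs578T-like and 12.3 in HCC38-like cells, and PPP1R12B had 7.84 in Hs578T-like and 21.5 in MDA-MB-453-like cells. Between Hs578T-like cells, 10 of the list were frequent enough to be correlated with the 9 genes, and the correlations ran from -0.12 for ITGA8 to 0.52 for MYL6, with a median of 0.14. MYLK was at -0.04 and SYNPO2 at 0.29, with 0.389 SYNPO2 UMIs per cell in the high set and 0.0634 in the low set.

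The non-muscle relatives showed smaller differences. Of 15 listed, 13 were measured, with a median log2 difference of 0.68. At least 2-fold higher in the Hs578T-like group were 3 (14% of measured genes), and 1 was at least 2-fold lower (12%). TPM4 had 1713 CPM in Hs578T-like and 966 in HCC38-like cells, and CNN2 had 150 CPM in Hs578T-like and 120 in HCC38-like cells. MYH9, a non-muscle myosin heavy chain, had 517 CPM in Hs578T-like and 178 in HCC38-like cells. TPM3 had 509 CPM in Hs578T-like and between 782 and 1028 in the others, and MYH14 had 0.589 CPM in Hs578T-like and 48.0 in BT-474-like cells. Their summed UMIs averaged 156 per cell in the high set and 108 in the low set.

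Genes of focal adhesions, which anchor actin filaments at the membrane, were at least 2-fold higher in Hs578T for 14 of 20, all measured. Over all measured genes the share was 14%. In this list 1 was at least 2-fold lower (12% of measured genes), and the median log2 difference was 1.35. The LIM-domain genes FHL1 and FHL2 had 155 and 286 CPM in Hs578T-like cells, against 6.59 and 133 CPM in HCC38-like cells, and NEXN, an actin-binding gene, had 284 CPM in Hs578T-like and 26.2 in HCC38-like cells. PXN, which encodes paxillin, had 29.6 CPM in Hs578T-like and 55.6 in MDA-MB-231-like cells. The list averaged 46.2 UMIs per cell in the high set and 28.0 in the low set, and its genes had a median correlation of 0.23 with the 9.

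Transcriptional regulators were read beside the 9 genes. MYOCD, which encodes myocardin, had 20.7 CPM in Hs578T-like (19.7 to 21.7), 0.611 in HCC38-like and 0.619 in MDA-MB-436-like cells, and 0 UMIs in the 3 groups of the other capture. In HCC38-like and MDA-MB-436-like cells it was thus at 2.96% and 3.00% of its Hs578T-like level, in or below the range of the markers. ELK3 had 50.3 CPM in Hs578T-like and 70.2 in MDA-MB-231-like cells, and GATA6 had 29.5 CPM in Hs578T-like and 27.1 in MDA-MB-231-like cells. MRTFB had 11.7 CPM in Hs578T-like and 34.2 in HCC38-like cells.

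A MYOCD UMI was found in 16.5% of the thinned Hs578T-like cells (14.9 to 18.3). The 323 cells with one averaged 4.83 ACTA2 UMIs and the 1630 cells without one 3.56, a ratio of 1.36 (1.28 to 1.43). The ratios of the 9 genes lay between 1.04 for TPM2 and 1.44 for CNN1 (1.21 to 1.71). Each is below the ratio between the high and low sets, and cells without a MYOCD UMI cannot be told from cells that express it at this depth. This split was chosen after the values of MYOCD were seen.

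Markers of other cell types were read for the same cells. Of 5 myoepithelial markers, 4 were measured and 3 were at least 2-fold higher in the Hs578T-like group (14% of measured genes). These were KRT14 with 146 CPM, KRT17 with 100 CPM and OXTR with 49.7 CPM. KRT5 was at 0.277 and TP63 at 0.289 CPM there. The summed level of the 5 was 296 CPM in Hs578T-like cells and between 1.87 and 26.7 in the other groups. It averaged 5.30 UMIs per cell in the high set and 1.41 in the low set.

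Of 10 markers of pericytes and fibroblasts, 9 were measured and 8 were at least 2-fold higher in the Hs578T-like group (14% of measured genes). They summed to 2646 CPM there and to 8.72 to 142 in the others, over all 10. POSTN had 1339, COL3A1 242 and LUM 126 CPM. The pericyte markers CSPG4 and PDGFRB had 28.3 and 18.8 CPM, both highest in the Hs578T-like group, while NOTCH3 had 7.88 CPM. RGS5, a pericyte marker that did not reach the limit for measured genes, had 2.47 CPM. LUM, COL1A1 and COL3A1 also belong to the Hs578T markers. The list averaged 38.0 UMIs per cell in the high set and 18.7 in the low set. Endothelial and immune markers summed to 33.5 CPM in Hs578T-like and between 1.52 and 66.0 in the other groups, of which CD68 made up 32.3 CPM in Hs578T-like cells, while CDH5, CD3E and HBB were at 0 UMIs there. They averaged 0.320 UMIs per cell in the high set and 0.344 in the low set. The part of other cell types in the result was not tested beyond these values.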

How the data were processed

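Single-cell gene expression of 6 breast cancer cell lines was read from 1 deposited matrix of raw UMI counts, 36601 genes and 12 multiplexing oligos by 17605 barcodes. The matrix comes from Cell Ranger 6.1.2, per the file headers, with GRCh38 (hg38) as the build that the submitters' processing notes name. How cells were called, how oligos were assigned and whether strand was used is not given in the sources used here. Since no label ties an oligo to a line, suffix groups were named from line markers.

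Barcodes with at most 20% mitochondrial UMIs were kept. UMIs were summed per group and scaled to 1000000 per group (CPM). Genes with 10 CPM in a group were measured, and log2 values used a pseudocount of 1 CPM. Intervals are exact Poisson (levels), Clopper-Pearson (shares) and conditional binomial (ratios) at 95%, for counting error only. For comparisons between cells, each cell was thinned to 10000 UMIs. The whole table was ranked or counted in every comparison, and the calculations were tested on simulated data.

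Doublets were kept. In an alternative, 466 barcodes were left out, namely Scrublet calls per capture (expected rate 0.06, scanpy 1.11.5) and barcodes that reached, for the 50 leading genes of a different line in their capture, 25% of the median of that line. The 9 genes and all listed genes were left out of those 50. Scaling alternatives used edgeR 4.0.16 (TMM factors) and DESeq2 1.42.0 (size factors), and all else Python 3.11.15 with scipy 1.17.1 and numpy 2.4.6. Gene positions are those of GENCODE (GRCh38). In the last 500 bases of the transcripts, 3 of 33 pairs of the 9 genes with family relatives shared a stretch of 31 bases, at most 5 such stretches.

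For cells ranked by the genes, the 25% highest and lowest were compared, as high and low sets. The genes, markers and lists were chosen with earlier results of these data known. Named were the 9 genes, in each list the 3 measured genes with the largest and the 2 with the smallest log2 difference, the 10 most and 5 least alike genes over cells and the 5 most alike over groups, while the lists of cell cycle genes are given by counts and sums only. Some results are not reported here. MYH11, DES, KRT5, TP63, RGS5, PDGFRB and the endothelial and immune genes were named after their values were seen. With 1 culture per line, the lines could not be tested against each other, and p-values are left out.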

Additional observations from a re-analysis of the deposited data

How the results depend on the processing

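No paired analysis was possible because no culture was repeated, and for the same reason no replicate could be left out. Over 54 alternatives, each of the 6 counts of genes or pairs stayed within 1.5 times its reported value. The sizes for single genes were less stable, as 134 moved beyond a limit set by counting error and 127 did not. With pseudocounts of 5 and 0.1 CPM, the log2 difference in the Hs578T-like group was 2.96 and 6.94 for CNN1 and 2.08 and 6.11 for LMOD1. For TPM2 in the luminal comparison it was -5.21 and -8.26. TPM1 stayed between 2.37 and 2.51 in the Hs578T-like group. The 9 genes were highest in the Hs578T-like group and at least 2-fold higher there in all of 9 alternatives each (barcode filters, doublets, scaling, pseudocount, no filter on low values). In the luminal groups between 7 and 9 were at least 2-fold lower, the 7 with a pseudocount of 5 CPM. Between Hs578T-like cells, 8 or 9 genes reached 1.5-fold between the compared cells, the 8 with all cells split at the median. Between 28 and 36 pairs reached a correlation of 0.2, the 28 with 5000 UMIs per cell, and 8 or 9 genes a variance of 1.5 times the mean, the 9 with 20000 UMIs per cell. TMM scaling moved the median log2 difference of all measured genes from -0.17 to -0.03 in the luminal comparison, and that of TPM1 from -1.17 to -1.04. Leaving out doublets and mixed barcodes, an alternative chosen after seeing the data, took the pairs in MDA-MB-436-like cells from 5 to 0 of 10 and those in HCC38-like cells from 15 to 12 of 15. With all cells split at the median, the ratio between the compared cells was 6.40 for LMOD1 and 9.18 for CNN1. At 5000 UMIs per cell the ratio between the high and low sets was 9 for LMOD1 and 21 for CNN1, and among cells with few G2/M UMIs it was 121 for LMOD1. Depth limits CNN1 and LMOD1, the genes with few UMIs, in every group, and LMOD1 passed the variance limit at 20000 UMIs per cell only.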
